A study of Mus musculus with 2 samples.

Results

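Group 2 innate lymphoid cells (ILC2s) of the mouse lung were picked out of 2 single-cell RNA-sequencing libraries by the transcripts of each cell. A cell was kept when at least 3 of 8 genes (among them Il1rl1, Gata3, Il13, Il5, Areg, Calca and Il2ra) had a unique molecular identifier (UMI, the tag that marks 1 captured RNA molecule), when Gata3 or Il1rl1 was among them, and when none of 9 genes of other lineages (Cd3d, Cd3e, Cd3g, Ebf1, Csf1r, Mertk, Ptprb, Cpa3 and Ms4a2) had any. The rule kept 87 of 29837 cells that passed the quality filters, 8 of 10495 in the library labelled GFI1 KO and 79 of 19342 in the library labelled GFI1 WT. The 8 selecting genes were therefore high by choice, and their values below are descriptions.

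The study asked what GFI1, a zinc-finger repressor of transcription, does in γδ T cells, and its lung libraries profiled the cells of a barrier tissue with and without it. Lungs of adult C57BL6/J mice of 5 to 8 weeks, either wild-type (WT) or with a germline deletion of Gfi1 that reaches every cell of the animal (GFI1 KO), were perfused and digested with collagenase IV and DNase, red cells were lysed, and sorted live cells were stained with oligonucleotide-tagged reagents (18 tags in the files, isotype controls and a streptavidin tag among them) and loaded on the 10x Genomics 3′ v3.1 chemistry. The labels name mouse 1 of each genotype, and 1 library per genotype was analysed here, so genotype, mouse and library cannot be told apart. The GFI1 KO library held 116825535 gene UMIs in 10700 called cells and the WT library 162599284 in 19515, with medians of 11076 and 6217 UMIs per filtered cell. All 95% intervals below are exact and cover counting error only, and no test between genotypes was possible.

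ILC2s are tissue-resident lymphocytes that carry no rearranged antigen receptor. They sense alarmins such as IL-33, which binds the receptor encoded by Il1rl1, and answer with IL-5 and IL-13, cytokines that recruit eosinophils and drive mucus production, and with amphiregulin, an epidermal growth factor family ligand linked to tissue repair. GATA3 and RORα are the transcription factors on which the lineage depends, and in the lung these cells sit near airways and vessels.

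The promoters of Il5, Il13 and Il1rl1 are shown because these genes give ILC2s their cytokines and their IL-33 receptor, and because GATA factors and GFI1 recognise short motifs. Each sequence is the 250 bases before a RefSeq transcription start in mouse build GRCm38.p6, read 5′ to 3′ along the gene. Capitals mark AGATAA, 1 form of the GATA family motif, or AATCAC, which lies within the GFI1 consensus, each searched on both strands (TTATCT and GTGATT are the same letters on the other strand).
Il5 (chr11:53720544-53720793, plus strand): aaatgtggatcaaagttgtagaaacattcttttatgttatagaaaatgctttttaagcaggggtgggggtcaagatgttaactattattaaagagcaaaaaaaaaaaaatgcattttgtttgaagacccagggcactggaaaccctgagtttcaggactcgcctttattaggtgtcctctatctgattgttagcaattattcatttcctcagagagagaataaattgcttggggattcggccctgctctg
Il13 (chr11:53634703-53634952, minus strand): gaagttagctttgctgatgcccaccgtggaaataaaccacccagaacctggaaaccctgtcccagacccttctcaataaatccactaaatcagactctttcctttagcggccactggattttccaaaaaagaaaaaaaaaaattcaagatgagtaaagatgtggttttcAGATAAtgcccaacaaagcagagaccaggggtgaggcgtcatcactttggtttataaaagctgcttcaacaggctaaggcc
Il1rl1, start site 1 (chr1:40429320-40429569, plus strand): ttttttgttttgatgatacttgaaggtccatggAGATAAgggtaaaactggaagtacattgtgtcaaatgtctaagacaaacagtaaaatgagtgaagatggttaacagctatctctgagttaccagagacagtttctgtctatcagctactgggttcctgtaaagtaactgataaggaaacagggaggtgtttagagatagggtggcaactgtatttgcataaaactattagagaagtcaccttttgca
Il1rl1, start site 2 (chr1:40439379-40439628, plus strand): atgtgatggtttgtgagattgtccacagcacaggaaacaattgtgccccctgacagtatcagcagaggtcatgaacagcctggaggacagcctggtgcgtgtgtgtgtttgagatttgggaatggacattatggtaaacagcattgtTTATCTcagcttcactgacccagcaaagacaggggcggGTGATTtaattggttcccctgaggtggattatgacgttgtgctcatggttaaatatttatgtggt
AGATAA lay 81 bases before the Il13 start, 217 before the upstream start of Il1rl1 and, on the other strand, 103 before its downstream start, while AATCAC lay 65 bases before that downstream start. Calca, which encodes calcitonin and the neuropeptide CGRP, held AGATAA 218 bases before its start, and neither string of letters was in these windows of Il5, Il4 or Areg. Other forms of the GATA motif were not searched, so a window without capitals may still hold one. Of 32851 mouse promoter windows of this length, 9.99% held AGATAA and 9.14% held AATCAC. These matches describe letters in a window and say nothing about binding.

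Some members went against the label. Members are numbered within a library from the deepest cell down, and KO 1, with 29151 UMIs, carried 43 UMIs of Gzma, 129 of Ccl5, 32 of Ifng, 14 of Eomes and 5 of Ncr1, the granzyme, chemokine, interferon-γ, transcription factor and activating receptor of natural killer (NK) cells. It had 0 UMIs of Il1rl1 and Il7r, 1 of Rora and 1 of Gata3, and 53 UMIs of the antibody tag against the NK cell surface protein NK1.1. This cell alone supplied 48.7% of all UMIs of the 8 GFI1 KO members. After 9538 ribosomal, mitochondrial and Gm-numbered genes were left out, as for all levels below, it supplied 47.9%. In the WT library, WT 1 (23065 UMIs, with 96 of Gzma, 82 of Ccl5 and 42 of Rora) and WT 56 (28 of Gzma, 2 of Rora) had NK cell genes. They supplied 6.60% of member UMIs after the same genes were left out. The main contrasts between libraries are given with and without these 3 cells, and some single genes in only 1 of these ways.

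Other cells carried transcripts or tags of other lineages too. WT 38 had 3 UMIs of the regulatory T cell factor Foxp3 and 69 of the CD4 antibody tag, WT 53 had 249 of that tag, and WT 9 held 246 of the 312 UMIs of the neutrophil gene S100a9 in the WT members. Lyz2, a gene of macrophages and neutrophils, was seen in 17 of 79 WT members (21.5%) and in 27.6% of WT B cells, which should lack it. In the GFI1 KO library it was seen with 1 UMI in 6 of 8 members and in 46.2% of B cells, at median depths of 4901.5 and 3984.5 UMIs. The 8 and 79 members had no barcode that was also called in the other library, although 74 barcodes of other cells were called in both, and the doublet caller Scrublet marked 0 of the 8 and 1 of the 79.

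Genes that the rule did not use separated the WT members from other lymphocytes. Rora stood at 5753 UMIs per 1000000 UMIs of the class (CPM; 95% interval 5499 to 6016) and was seen in all 79 WT members, with 2, 21 and 91 UMIs in the lowest, median and highest cell. The same gene stood at 1307 CPM in regulatory T cells, 1855 in effector CD4 T cells, 276 in NK cells and 14.7 in B cells of that library. Il7r, the receptor for the survival cytokine IL-7, stood at 2257 CPM in WT members against 854, 1272, 45.3 and 29.2 in the same order. In the GFI1 KO library, Rora counts were 1, 34, 25, 35, 26, 3, 30 and 36 in KO 1 to KO 8, and Il7r counts were 0, 7, 9, 6, 14, 4, 15 and 8. KO 1 and KO 6 were the low cells for Rora, and KO 1 was the member without Il7r.

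**Figure D1:**
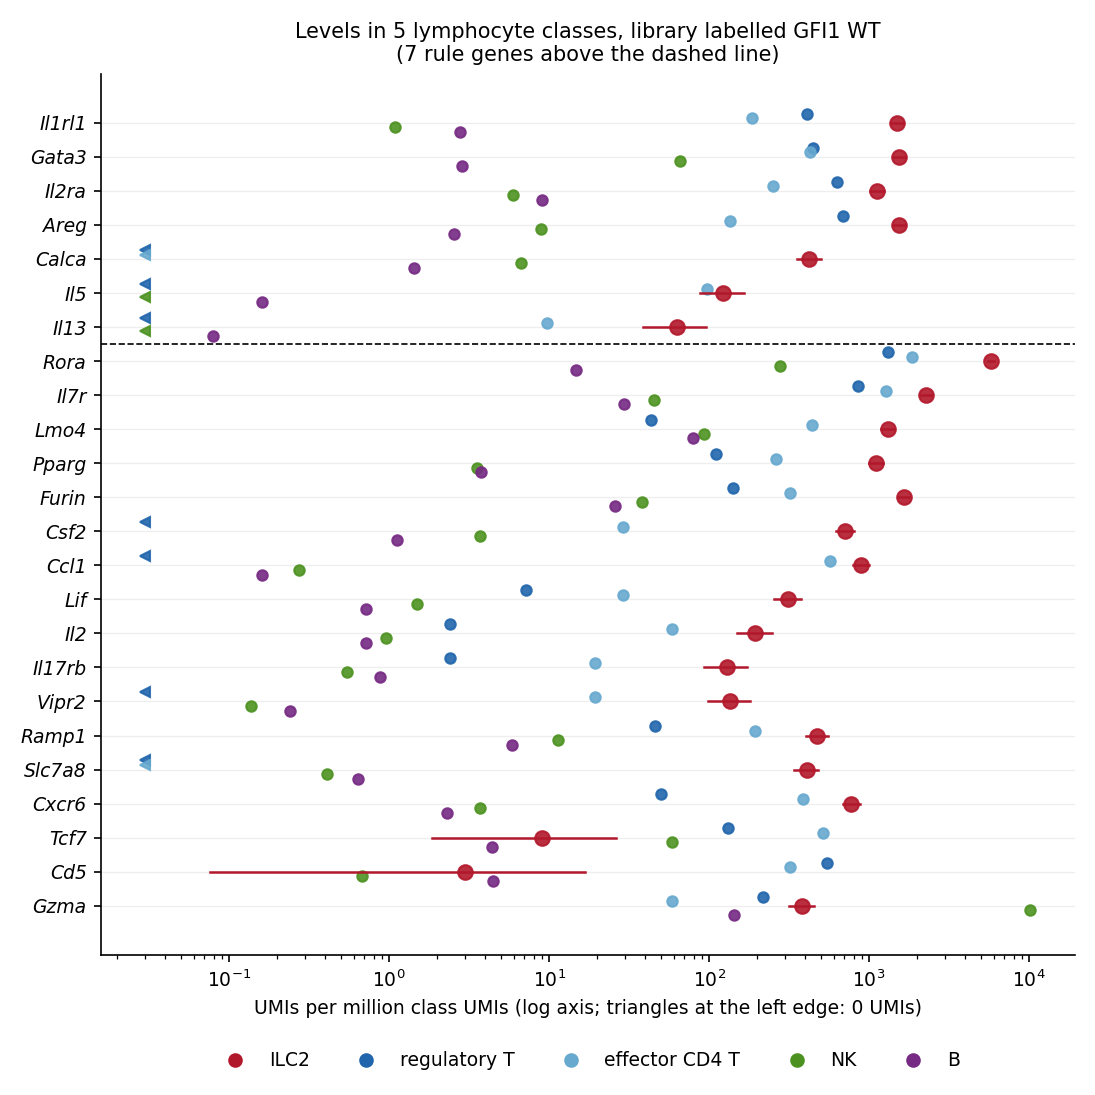
Levels of 7 selecting genes (above the dashed line) and 17 other genes in ILC2s, regulatory T cells, effector CD4 T cells, NK cells and B cells of the GFI1 WT library, in CPM on a log axis, with exact 95% Poisson bars for ILC2s and triangles for 0 UMIs. Rora reached 5753 in ILC2s, and Gzma stood at 380 there against 10204 in NK cells, or at 9.60 in the 77 ILC2s left without WT 1 and WT 56.

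The summed level of 15 listed identity genes outside the rule was compared across classes. They took 13034 CPM (12650 to 13427) in WT members, 4699 in regulatory T cells, 6731 in effector CD4 T cells, 1748 in NK cells and 480 in B cells. In the 8 GFI1 KO members they took 9491 CPM (8626 to 10420), against 8512 in the effector CD4 T cells of that library, and 17587 without KO 1. For gene-by-gene contrasts, members were set against regulatory T, effector CD4 T and NK cells pooled, of which NK cells were 1882 of 1968 in the WT library. Of 10152 genes compared there, 1223 (12.0%) were more than 2-fold higher in members and 2276 more than 2-fold lower, with a median log2 ratio of -0.23. Among identity genes, 9 of 11 were more than 2-fold higher and 0 lower, with a median log2 ratio of 3.79. The counts over all genes are the background for every list set against the pooled cells below.

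Not every listed identity gene was seen. Hs3st1, a heparan sulfate sulfotransferase, was 973-fold higher in WT members than in the pooled lymphocytes and was found in 43 of 79 cells, but also in 46.9% of WT B cells. Lmo4, a LIM-domain adaptor, was 13.8-fold higher and found in 64 cells, and it was also 2.99-fold higher than in effector CD4 T cells alone. Bcl11b, a zinc-finger factor of T cells and ILC2s, was 12.1-fold higher than in the NK-dominated pool but stood at ratios of 1.17 to regulatory T cells and 0.764 to effector CD4 T cells. Icos, a costimulatory receptor, was likewise 5.51-fold higher than in the pool and lower than in both T cell classes, at ratios of 0.738 (0.644 to 0.846) and 0.761. Id2, an inhibitor that all innate lymphoid cells share, stood at 971 CPM in members and 975 in NK cells, but was 4.22-fold higher (3.35 to 5.35) than in regulatory T cells and 1.69-fold higher (1.28 to 2.28) than in effector CD4 T cells. Ptgdr2, the prostaglandin D2 receptor CRTH2, had 0 UMIs in every lymphocyte class of the WT library, and Nmur1, the neuromedin U receptor, had 6 UMIs in 5 WT members.

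The edge of the rule was not sharp in every direction. The 14 WT cells with exactly 3 selecting genes had Rora at 6718 CPM (5922 to 7592), seen in all 14, and identity genes at 13437 CPM, close to the 5629 and 12982 CPM of the 65 cells with 4 or more. The 35 WT cells just outside, with 2 selecting genes, had Rora at 1019 CPM (886 to 1166), seen in 15 of them, and identity genes at 2427 CPM. In the GFI1 KO library, Rora stood at 176 CPM in 3 cells just outside, 1273 in the 2 cells with exactly 3 genes, of which KO 1 was the deeper, and 7191 in the 6 cells with more. Before the 9 foreign lineage genes were applied, 237 WT and 47 GFI1 KO cells met the positive side of the rule, and 121 and 36 of them carried a Cd3 transcript.

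The 15 genes that stood highest over the pooled lymphocytes in both libraries added to this picture. Stab2, which encodes the scavenger receptor stabilin-2, was seen in 64 of 79 WT members and stood at 1429 CPM against 0.254, a ratio of 5619 (1547 to 46529). In GFI1 KO members it stood at 990 CPM in 5 of 8 cells, at least 446-fold higher than lymphocytes without a UMI (at least 856-fold without KO 1). Pard3, a scaffold of cell polarity, was seen in 74 WT members at a ratio of 687 and in 7 GFI1 KO members at 313. Thsd4, an extracellular matrix protein gene, reached a ratio of 873, Ccdc184 987, the endocytosis gene Amph 1052 and the potassium channel gene Kcnd2 1039. The unnamed gene 1700113H08Rik, at least 799-fold higher, Stxbp6, Bmp2, Plxdc2 and Arhgap32 completed the set beside Csf2, Ccl1, Vipr2 and Il17rb. Each of the 15 had under 20 CPM in the pooled lymphocytes of the WT library.

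Transcription factors of the lineage were mixed. Of 18 tested in WT members, 7 were more than 2-fold higher than in the pooled lymphocytes and 2 lower. Among all 10152 genes these counts were 1223 and 2276. Pparg, the nuclear receptor of lipid metabolism, stood at 1109 CPM in 62 of 79 cells, 88.1-fold higher, and Rora was 16.4-fold higher. Over the 79 WT members Pparg had a median of 2 and a highest count of 97 UMIs. Tox, a factor of early innate lymphoid development, was 2.34-fold higher than in the pool and 2.99-fold higher than in NK cells, but stood at ratios of 0.519 (0.459 to 0.586) to regulatory T cells and 0.921 to effector CD4 T cells. Tcf7, which marks progenitors and naive T cells, had 3 UMIs in 2 cells, at 8.97 CPM against 515 in effector CD4 T cells. Gfi1b, the paralogue of Gfi1, had 0 UMIs in members of either library.

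Receptors for alarmins and cytokines came next. Il1rl1 was seen in 74 WT members, with 0, 5 and 30 UMIs in the lowest, median and highest cell, and in 7 of 8 GFI1 KO members, with 0, 5, 3, 8, 4, 3, 6 and 2 UMIs from KO 1 to KO 8. Outside the rule, Il17rb, the receptor for the alarmin IL-25, stood at 129 CPM and was 144-fold higher than in the pooled lymphocytes, and Il9r, the receptor for IL-9, was 60.5-fold higher. Against regulatory T cells alone Il9r was 3.45-fold higher (1.79 to 7.09), and against B cells 3.51-fold. Crlf2, which binds the alarmin TSLP, was 1.12-fold higher and was seen in 22 of 79 members (27.8%) and in 20.05% of B cells. Il18r1, a subunit of the IL-18 receptor, stood at a ratio of 0.244 to the pooled cells and was below each of the 3 classes. Il18rap, the other subunit, stood at 0.240 to the pool but at 2.70 to regulatory T cells, and Il2rb, the IL-2 receptor β chain, at 0.190 to the pool, while the α chain Il2ra is a selecting gene and Il2rg, the common γ chain, stood at 1.52. In all, 5 of 14 receptor genes were more than 2-fold higher and 3 lower, against 1223 and 2276 of all 10152 genes.

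Receptors for neural and lipid signals stood out as a list, with 9 of 11 tested more than 2-fold higher, 0 lower and a median log2 ratio of 4.93 against -0.23 over all genes. Vipr2, the receptor for vasoactive intestinal peptide, was seen in 25 WT members (31.6%) and in 0.0978% of B cells, and stood 353-fold higher than in the pooled lymphocytes. Ramp1, Ramp3 and Calcrl, which together form receptors for CGRP and adrenomedullin, stood at 472, 535 and 362 CPM, and against effector CD4 T cells alone Ramp1 was 2.43-fold and Ramp3 1.49-fold (1.04 to 2.18) higher. Cysltr1 and Ltb4r1, receptors for leukotrienes, were 129-fold and 42.4-fold higher, and Ptgir, the prostacyclin receptor, 194-fold higher. Slc7a8, an amino acid transporter, was seen in 58 of 79 WT members and in 0.261% of B cells, at 406 CPM against 0.408 in NK cells. Summed over the list, these receptors took 2457 CPM in WT members against 826 in effector CD4 T cells. With all 8 GFI1 KO members they took 1227 CPM (929 to 1589) against 977 (744 to 1260) in effector CD4 T cells of that library, where the intervals overlapped, and 2312 CPM (1746 to 3002) without KO 1. In the same list as Slc7a8, of lipid and arginine metabolism, 7 of 13 genes were more than 2-fold higher in WT members and 3 lower. Among all 10152 genes these counts were 1223 and 2276.

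Of 13 checkpoint and costimulatory receptors, 6 were more than 2-fold higher and 4 lower, against 1223 and 2276 of all 10152 genes. Pdcd1, the inhibitory receptor PD-1, was 29.3-fold higher than in the pool and seen in 32 WT members, and Cd44 was 3.60-fold higher. Against effector CD4 T cells alone the ratios were 1.19 (0.69 to 2.17) and 1.14 (0.90 to 1.47). Ctla4, an inhibitory receptor of regulatory T cells, had 9 UMIs in 3 members, at 26.9 CPM against 1926 in regulatory T cells.

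Position in the tissue was read from chemokine receptors and egress genes. Cxcr6, a receptor of resident lymphocytes, stood at 774 CPM in 59 of 79 WT members, 69.2-fold higher than in the pooled cells and 1.99-fold higher than in effector CD4 T cells, Ccr8, the receptor for the chemokine CCL1, 174-fold higher, and Ccr2 at 1037 CPM in 72 members. S1pr1, which lets lymphocytes leave tissue, had 3 UMIs in 1 member, at 8.97 CPM against 417 in regulatory T cells. Of 16 genes of homing and residency, 7 were more than 2-fold higher and 6 lower, against 1223 and 2276 of all 10152 genes.

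Secreted products were carried by subsets of members. Areg was seen in 53 of 79 WT members with a median of 2 and a highest count of 91 UMIs, Calca in 28, Il5 in 19 and Il13 in 3. The cell WT 2 held 18 of the 21 Il13 UMIs together with 91 of Areg and 71 of Csf2. In the GFI1 KO library Il5 lay in 1 of 8 members, KO 4 with 34 UMIs, Il13 was 1 UMI in KO 5, and Areg counts were 1 in KO 1, 15 in KO 2 and 2 in KO 8. Il4, Il9, Il3 and Il10, further cytokines that ILC2s can make, had 0 UMIs in members of either library, which for the WT members allows up to 8.97 CPM at 3 counts.

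Outside the rule, 12 of 15 secreted products were more than 2-fold higher than in the pooled lymphocytes and 2 lower. Csf2, the growth factor GM-CSF, stood at 705 CPM (618 to 801) in 24 of 79 WT members and 185-fold higher, Ccl1, a ligand of CCR8, at 888 CPM in 25 members and 114-fold higher, and Lif, an IL-6 family cytokine, at 311 CPM in 28 members and 144-fold higher. Il2, better known as a T cell growth factor, stood at 194 CPM in 23 members, and Cxcl2, a chemokine for neutrophils, at 1067 CPM in 23. Of the 357 Cxcl2 UMIs, 76 lay in WT 9 and 51 in WT 3, which also had 246 and 62 UMIs of S100a9. Another 73 lay in WT 7, which had 0 of S100a9. Furin, a protease that processes precursors, was seen in 69 members at 1641 CPM. Effector CD4 T cells also carried Ccl1 (573 CPM) and stood above members for Tnfsf11, the cytokine RANKL (680 CPM against 281).

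Shares of each transcript in the whole library show how much of it lay in so few cells. The 79 WT members held 41 of 93 Il5 UMIs (44.1%, 33.8 to 54.8), 21 of 54 Il13 UMIs (38.9%, 25.9 to 53.1), 46.0% of Csf2, 44.9% of Ccl1, 22.0% of Il2, 23.6% of Il1rl1 and 9.86% of Areg. Another 41 Il5 UMIs lay in cells with a Cd3 transcript. The 8 GFI1 KO members held 34 of 35 Il5 UMIs, all in KO 4, and 44 of 50 Ccl1 UMIs, but 1 of 79 Il13 UMIs, of which basophils and mast cells held 75. KO 2 and KO 3, the 2 members kept when other lineage transcripts were left out, had 0 UMIs of Il5 and Il13. Il4 had 203 UMIs in the GFI1 KO library and 123 in the WT library, 0 of them in members.

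Among the members themselves, products were seen together at unequal rates. Hs3st1 was seen in 84.2% of the 19 WT members with Il5 and in 45.0% of the 60 without. Tnfsf11 was seen in 11 of the 19 and 18 of the 60, and Csf2 in 9 of the 19 and 15 of the 60. Il5 is a selecting gene, so the rule shaped which cells with and without it became members, and the members with Il5 were also deeper, at a median of 6036 UMIs against 4456.5. The part of the rule and of depth in these shares was not tested. Csf2 and Ccl1 were seen together in 13 members, 54.2% of the 24 with Csf2, whereas Ccl1 was seen in 12 of the 55 without (21.8%), at median depths of 5837.5 and 4520 UMIs. Of 11 secreted products, some of them selecting genes, the WT members carried a median of 3 and the GFI1 KO members 3.5, with a range in WT from 0 in 4 cells to 10 in 1 cell.

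**Figure D2:**
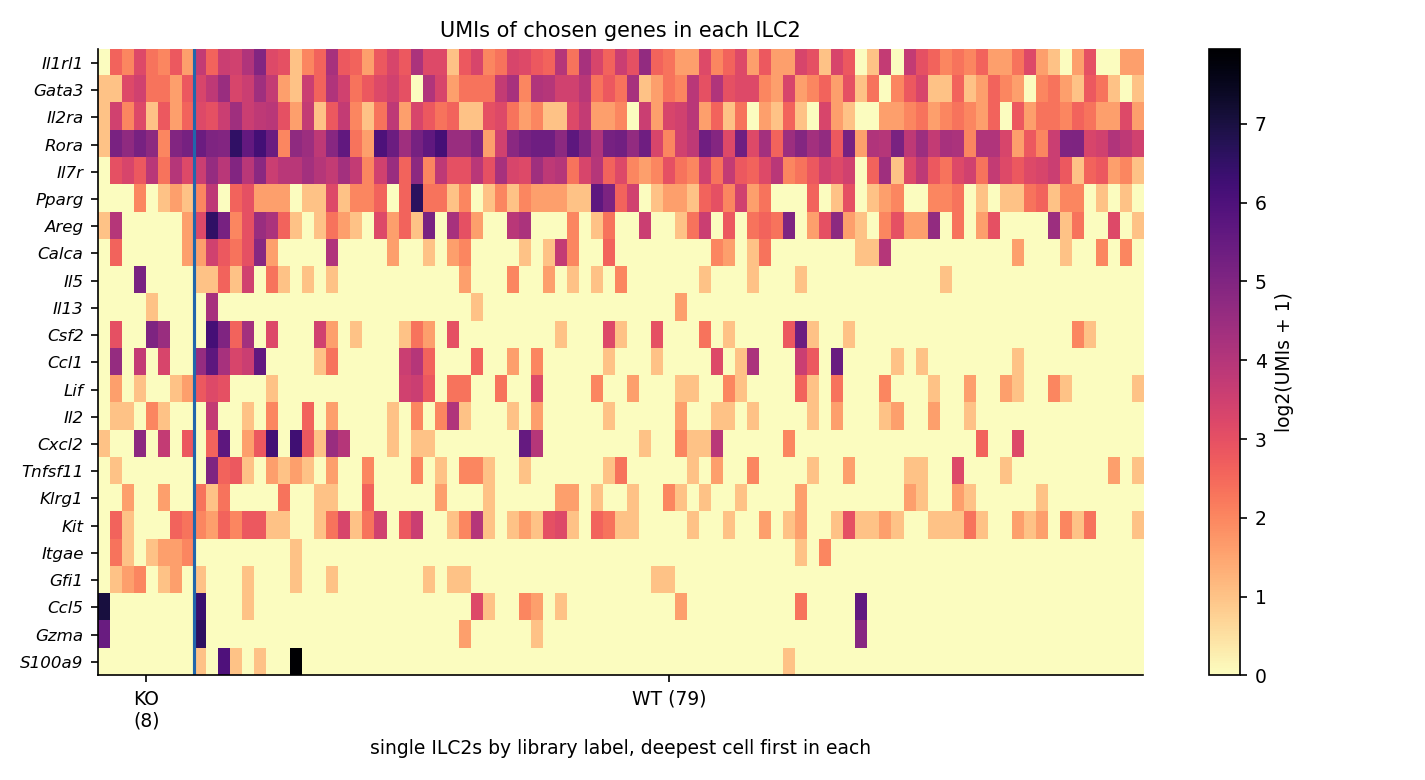
Counts of 23 genes in each of the 87 members, as log2(UMIs + 1), with the 8 GFI1 KO members at the left and the 79 WT members at the right, deepest cell first within each library. Rora fills nearly every column, Il5 appears in 20 of 87, and Gzma is concentrated in KO 1, WT 1 and WT 56.

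Antibody tags gave a readout that the rule did not use. CD127, the protein of Il7r, had a median of 25 tag UMIs in WT members and 23.5 in GFI1 KO members, and 30 of 79 (38.0%, 27.3 to 49.6) and 3 of 8 cells reached 30. B cells, which should lack it, reached 30 in 1.08% and 0.875%, and the regulatory T cells had medians of 12.5 and 7. Effector CD4 T cells had medians of 12 and 14, and 4 of 26 and 2 of 16 reached 30. The intervals of these shares, 4.36 to 34.9% and 1.55 to 38.3%, overlapped those of members in both libraries. The counts from KO 1 to KO 8 were 3, 34, 37, 13, 20, 21, 35 and 26, so that the lowest was the cell with NK genes. CD117, the receptor KIT, had medians of 20 and 24 in members and of 1 to 5 in T, NK and B cells, with Kit RNA in 53 of 79 WT members (67.1%; 0.652% of B cells).

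KLRG1, an inhibitory receptor of mature ILC2s and NK cells, had a median of 33 tag UMIs in WT members and 13 in GFI1 KO members. WT members spanned 0 to 222, and the GFI1 KO counts of 7, 16, 146, 52, 99, 10, 0 and 8 lay within that span. The tag reached 30 in 20 of 23 WT members with Klrg1 RNA and in 22 of 56 without, at median depths of 5310 and 4607.5 UMIs. KLRG1 without CD117 was above this level in 26 WT members, CD117 without KLRG1 in 8, both in 16 and neither in 29. CD4 reached 30 in 0 of 8 and 2 of 79 members but in 100% and 98.3% of regulatory T cells, and CD45, the pan-leukocyte protein, in all members.

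**Figure D3:**
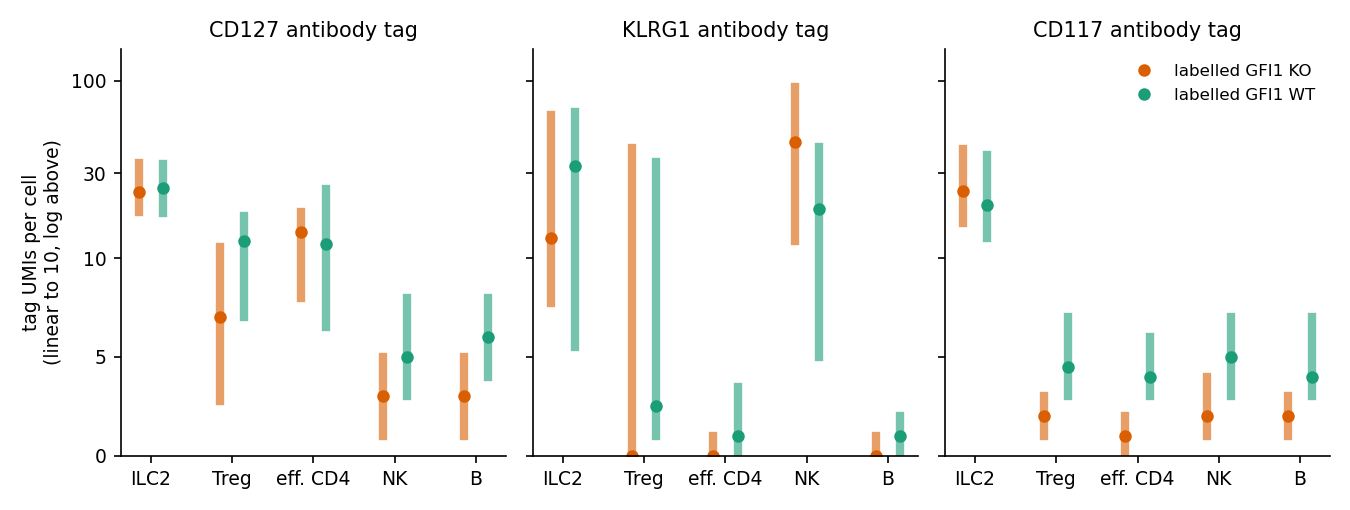
Tag UMIs per cell for the antibodies against CD127, KLRG1 and CD117 by cell class and library, with points at the median and bars over the interquartile range. CD127 and CD117 medians were higher in ILC2s (25 and 20 in WT) than in NK cells (5 and 5), whereas KLRG1 was also carried by NK cells (19 in WT and 45 in GFI1 KO).

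Transcripts of neighbouring lineages were read in the same way. Of 9 T cell genes tested outside the rule, 6 were more than 2-fold lower than in the pooled cells, among them Cd4 with 0 UMIs, Cd5 with 1 and Cd28 with 2. Cd8a and Cd8b1 also had 0 UMIs, as did both T cell classes, which the rules for those classes required. Trac, the α chain constant gene, had 10 in 3 of 79 cells. Trgc1, a γ chain constant gene with too few UMIs for the count above, went the other way, with 15 UMIs in 11 WT members (13.9%, against 0.0326% of B cells) and a ratio of 47.0 (18.1 to 136) to NK cells and 2.31 (0.54 to 20.8) to effector CD4 T cells. The β chain constant genes were different, since Trbc1 was seen in 43 WT members (54.4%) and Trbc2 in 52 (65.8%), against 1.66% and 1.27% of B cells at a median of 4332.5 UMIs. After each cell was thinned to 1500 UMIs these shares were 28.2% and 34.6%, and 0.556% and 0.425% in B cells. NK cells, which do not rearrange the receptor either, carried Trbc1 at 396 CPM against 380 in WT members, but Trbc2 was 2.41-fold (2.01 to 2.87) higher in members than in NK cells. Regulatory T cells stood above members for both, with Trbc1 at 741 CPM.

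All 12 type-1 and NK genes tested were more than 2-fold lower in WT members than in the pooled cells, where NK cells were in part chosen by 4 of them (Ncr1, Klrb1c, Eomes and Gzma). Tmem176a and Tmem176b, which encode membrane proteins, stood at 481 and 496 CPM, 32.4-fold and 32.8-fold higher than in the pooled cells. None of 10 cell cycle genes tested differed by more than 2-fold from the pooled cells, with a median log2 ratio of 0.03. Their sum was 514 CPM in WT members against 3054 in regulatory T cells, 324 in NK cells and 165 in effector CD4 T cells, and 269 CPM (214 to 333) in members without the 2 cells with NK genes, which held 88 of the 172 UMIs. All 150 cell cycle UMIs of GFI1 KO members lay in KO 1. Myeloid genes were more than 2-fold higher in 0 of 9 and lower in 5, and for B cell, endothelial and epithelial genes 0 of 2 tested in each list passed 2-fold in either direction. Neutrophil genes were higher in 4 of 5, led by S100a9 and S100a8, which lay mostly in WT 9. The mast cell and basophil genes tested, Kit and Hdc, were both higher, while the defining Mcpt8, Fcer1a, Mcpt4 and Tpsb2 had 0 UMIs.

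Members were less frequent in the GFI1 KO library. They made 0.0762% of filtered cells (0.0329 to 0.150) there and 0.408% (0.323 to 0.509) in the WT library, a WT to KO ratio of 5.36. The denominators changed as well, so the size of the gap depended on the comparison: per 100 cells with a Cd3 transcript the ratio was 2.91 (0.831 and 2.41), per 100 B cells 2.94, per 100 regulatory T cells 4.61, and per 100 NK cells 1.11 (3.79, 1.62 to 7.61, against 4.20, 3.31 to 5.26). Against NK cells the intervals overlapped, and against the other 4 denominators they did not. Leaving out members with a transcript of Trac, Trbc1, Trbc2, Trdc, Cd4, Cd8a, Cd8b1 or Foxp3 kept 5 GFI1 KO and 12 WT members, 0.0476% and 0.0620% of filtered cells, while leaving out members with Lyz2, Cd79a, Cdh5 or Epcam kept 2 and 59, 0.0191% and 0.305%. With each cell thinned to 1500 UMIs before the rule, 5 GFI1 KO and 91 WT cells were kept, 0.0482% and 0.481% of those deep enough. The sort took all live cells, and whether the number of ILC2s or the make-up of the rest differed cannot be told apart from shares.

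**Figure D4:**
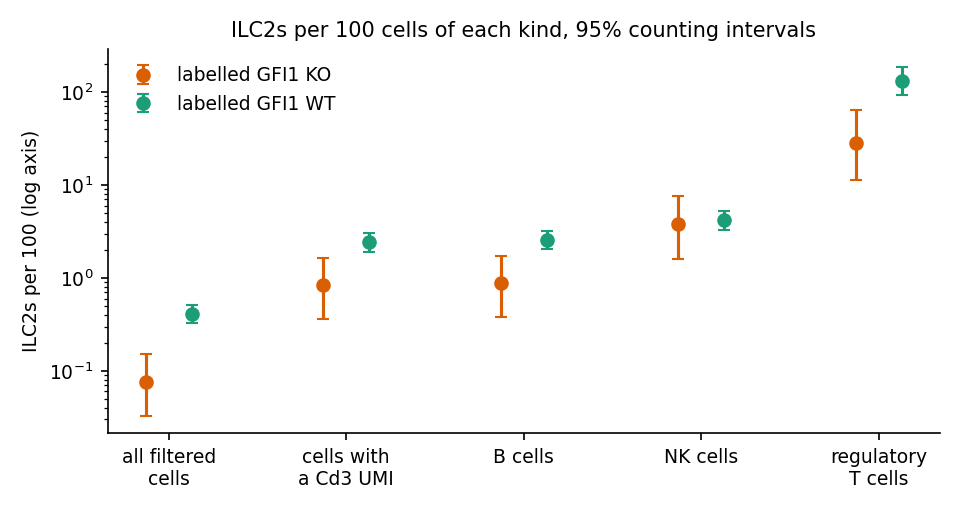
ILC2s per 100 filtered cells, Cd3-positive cells, NK cells, B cells and regulatory T cells in the GFI1 KO and WT libraries, with exact 95% intervals. The WT value is higher for each denominator, by 5.36-fold per filtered cell and 1.11-fold per NK cell.

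Gfi1 itself was not lower in the cells labelled GFI1 KO. The 8 GFI1 KO members had 0, 1, 2, 3, 0, 1, 2 and 0 Gfi1 UMIs, 9 in 5 cells or 194 CPM, and the 79 WT members had 9 in 9 cells or 26.9 CPM, a ratio of 7.20 (2.53 to 20.5). Without the NK-gene cells the levels were 372 and 25.6 CPM and the ratio 14.5 (4.97 to 43.2). B cells carried a Gfi1 UMI in 4.16% and 2.02%. After thinning to 1500 UMIs, Gfi1 was seen in 25% of GFI1 KO and 0% of WT members. The counts do not tell which exon a read came from, so RNA that lacks the deleted part would still be counted and this gene does not check the label.

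Across genes, the contrast of GFI1 KO with WT members changed with KO 1. In all 8 and 79 members, 364 of 2728 genes (13.3%) were more than 2-fold higher in GFI1 KO and 598 (21.9%) more than 2-fold lower. Of the 10 genes named as highest in GFI1 KO, 9 had all or nearly all of their GFI1 KO UMIs in that cell, with Ifng at least 76.8-fold higher (32 UMIs, all in KO 1), Ccl4 at a ratio of 106, Gzmb at 44.2, Klre1 at 13.2, Nkg7 at 9.54 and Il12rb2 at 9.49, all of them NK cell genes, and the cell cycle-linked H1f5 and Pclaf at 19.4 and 17.2. Irf8, an interferon regulatory factor, had 33 of its 34 UMIs there. The exception was Ccny, the cyclin-Y gene, with 94 of 99 UMIs in 1 other cell and a ratio of 7.27, or 14.5 (10.8 to 19.6) without the NK-gene cells, which turned to 0.728 when cells were thinned to 1500 UMIs before the rule. Without the 3 members with NK genes, 179 of 2334 genes (7.67%) were higher and 578 (24.8%) lower. The 7 GFI1 KO members left held 24222 UMIs, against 312494 in the 77 WT members left. Genes were counted by their ratio alone, without regard to its interval, and at that depth a gene can pass 2-fold by counting error. The counts expected without a difference are not given here. The excess of lower over higher genes, with or without these members, was therefore not tested.

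Most genes named as lower in GFI1 KO were also low without that cell. Rab27b, a GTPase of vesicle secretion, was seen in 0 of 8 GFI1 KO and 53 of 79 WT members and was at least 8.15-fold lower (at least 4.50-fold without the NK-gene cells), and Plcl1, a phospholipase C-like protein gene, was seen in 1 and 63 at a WT to KO ratio of 14.5 (7.57 without them). Pparg was seen in 4 and 62 cells with a ratio of 7.36, and without the NK-gene cells its GFI1 KO to WT ratio was 0.245 (0.098 to 0.511). Of its 371 WT UMIs, WT 19, WT 34 and WT 35 held 97, 50 and 33, against a WT median of 2. Ccr2, Jarid2, a cofactor of Polycomb repression, and Hs3st1 stood 6.02-fold, 10.2-fold and 9.58-fold lower over all members. Without the NK-gene cells their GFI1 KO to WT ratios were 0.300 (0.128 to 0.598), 0.0589 (0.00148 to 0.332) and 0.191. Usp38 and Ypel2 had 0 GFI1 KO UMIs and 105 and 112 in WT members, in 30 and 29 of the 79 cells. Of the 112 Ypel2 UMIs, 48 lay in 1 cell. S100a9 and S100a8, also at 0 GFI1 KO UMIs, lay mostly in WT 9.

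Of the genes of ILC2 identity outside the rule, some were close between the libraries after the NK-gene cells were left out and others were not. Rora stood at 7803 CPM in 7 GFI1 KO and 6019 in 77 WT members, a ratio of 1.30 (1.11 to 1.51), and Il7r at a ratio of 1.09 (0.83 to 1.41), whereas Hs3st1 stood at 0.191 and Lmo4 at 1.78. The selecting genes Gata3 and Il1rl1, at 0.898 and 0.816, are given only as a description, since each member had to carry at least 1 of them. Over all 8 and 79 members the identity list had a median log2 ratio of -0.73 with 5 of 11 genes more than 2-fold lower and 0 higher. Without the NK-gene cells the median was 0.13 with 2 higher and 2 lower. For all genes tested the median was -0.15 over all members, with 13.3% higher and 21.9% lower. Without the NK-gene cells it was -0.17, with 7.67% higher and 24.8% lower. Over all members Rora had 190 of 46464 UMIs in GFI1 KO and 1925 of 334581 in WT, and Il7r had 63 and 755. Both were lower in GFI1 KO there, and Lmo4 had 65 and 438 UMIs. Without the NK-gene cells, secreted products had a median log2 ratio of 0.16, with Csf2 at a ratio of 3.33 (2.47 to 4.44) and Ccl1 at 2.07. Over all 8 and 79 members the median was -0.14. Csf2 then stood at 1313 CPM in GFI1 KO and 705 in WT, and Ccl1 at 947 and 888. The Csf2 UMIs lay in 3 of 8 GFI1 KO members, with 7 in KO 2, 32 in KO 5 and 22 in KO 6.

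Several receptor and adhesion genes stood apart in how many cells carried them or in their level, again without the NK-gene cells. Itgae is the CD103 integrin that holds lymphocytes to epithelium. It was seen in 6 of 8 GFI1 KO members (0, 4, 1, 0, 1, 2, 2 and 3 UMIs), 3 of 79 WT members and 0.219% of GFI1 KO B cells. Its ratio was 33.5 (11.2 to 120) without the NK-gene cells, with 18 UMIs over both libraries. The ratio was lower over all 8 and 79 members, with 13 of 46464 and 5 of 334581 UMIs. Of the 5 WT UMIs, 3 lay in WT 53, which had 249 UMIs of the CD4 tag. Icos, Cd44, an adhesion receptor of activated lymphocytes, and Tox stood at ratios of 2.81, 2.70 and 2.20. Over all 8 and 79 members Icos had 73 of 46464 and 339 of 334581 UMIs, under 2-fold apart. Of 8 checkpoint genes tested, 1 was more than 2-fold higher in GFI1 KO and 1 lower over all members. Over all genes these shares were 13.3% and 21.9%. Without the NK-gene cells 2 of the 8 were higher and 2 lower, against 7.67% and 24.8% of all genes. Trbc2 stood at 0.186 and Tnfsf11 at 0.137, each with at most 2 GFI1 KO UMIs. With 7 or 8 cells of 1 mouse, these ratios describe the 2 libraries and not the genotypes.

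**Figure D5:**
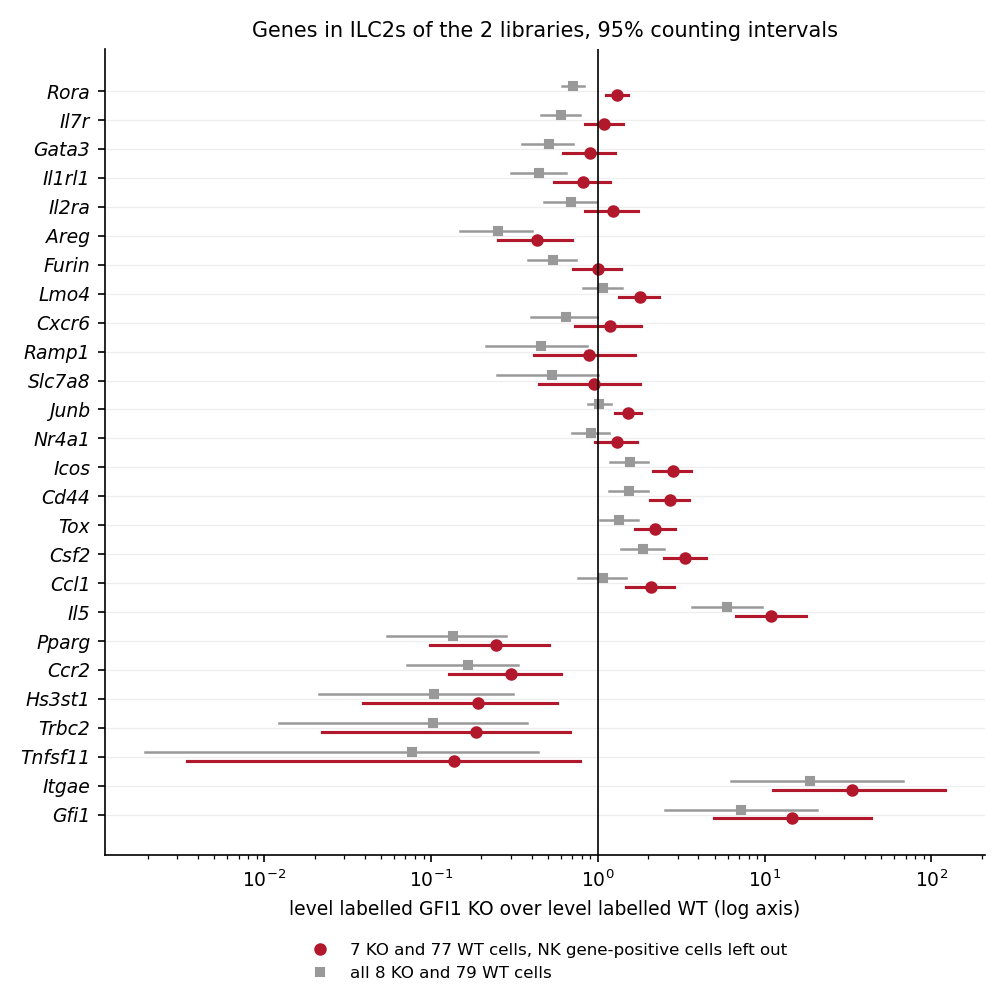
GFI1 KO to WT ratios of 26 genes in members, on a log axis with exact 95% intervals, for all 8 and 79 cells (grey squares) and for the 7 and 77 cells without NK genes (red points). Without the NK-gene cells Il7r lies at 1.09 and Rora at 1.30, while Pparg (0.245) and Itgae (33.5) lie farther from 1; the selecting genes are shown as a description.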

How the data were processed

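The authors deposited, for each of the 2 libraries, a matrix of UMI counts per gene and antibody tag for called cells, and the submitters' processing notes name Cell Ranger 9.0.1 and builds GRCm39 and mm39. The study's methods state 2 samples per genotype, and the others were not analysed here. Cells with at least 500 gene UMIs, at least 200 genes and at most 20% mitochondrial UMIs were kept, with doublets left in (Scrublet marked 3.30% of GFI1 KO and 5.88% of WT cells). 1 selecting gene and some listed genes are not reported here. The selection rule and all gene lists were chosen with earlier results of these data known.

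Levels were summed UMIs per 1000000 class UMIs, counted at the 3′ end so that gene length does not enter, after leaving out 9538 ribosomal, mitochondrial and Gm-numbered genes, which took 18.9% of GFI1 KO and 16.4% of WT UMIs. Regulatory T, effector CD4 T, NK, B and basophil or mast cells were set by marker rules in the same way. Intervals at 95% were exact Poisson for levels, Clopper-Pearson for shares and conditional binomial for ratios. Where a class had 0 UMIs, a fold was computed against a floor of 3 counts over the class. Counts of genes past 2-fold and the ranking between libraries used genes with at least 30 UMIs over both libraries, and ratios of listed genes such as Gfi1 and Itgae, with 18 UMIs each, are given below that number too. Named genes were those of 22 lists, the 10 highest and 10 lowest library ratios by the interval bound nearer 1, and the 15 highest ratios over pooled T and NK cells by the lower bound of both libraries. Shares of cells with a UMI were also taken after thinning each cell to 1500 UMIs. RefSeq promoters came from GRCm38.p6, and no coordinates were carried between builds. The ratio script was tested on simulated data. Alternatives changed the number of selecting genes, the filters, the scale and the cells left out. Python 3.11.15, numpy 2.4.6, scipy 1.17.1, pandas 2.3.3, scanpy 1.11.5 and matplotlib 3.10.9 were used.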

Additional observations from a re-analysis of the deposited data

How the results depend on the processing

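With 8 GFI1 KO cells, 1 of which held 47.9% of the UMIs used for levels, GFI1 KO levels moved with most choices. With 1 library per genotype the spread between mice is unknown. No paired analysis was possible because 1 library per genotype was analysed here. Of 122 checks of the main values, 90 kept close to the first value and 32 did not. Among single genes 457 did, 83 did not and 1 turned. Close meant within the first value's counting interval or, for counts of genes past 2-fold, within a fixed fold of the first count.
The share of GFI1 KO cells was 0.0191% without cells that carried Lyz2, Cd79a, Cdh5 or Epcam. The WT share was 0.589% with at least 2 selecting genes, 0.0620% without cells with T cell transcripts and 0.305% without other lineage transcripts. The identity level in GFI1 KO was 5382 CPM with at least 2 genes, 16418 with at least 4, 17963 without T cell transcripts, 19856 after thinning before the rule, 14399 without other lineages, 7367 over all genes, 16920 as a mean of cells and 17587 without NK-gene cells, an alternative chosen after seeing the data. The WT level was 8967 CPM with at least 2 genes, 17558 without T cell transcripts, 12263 after thinning, 13547 without other lineages, 10284 over all genes, 13520 as a mean of cells and 13690 without NK-gene cells. The share of GFI1 KO members at 30 CD127 tags was 100% without other lineages. The members' share of Il13 and Il5 UMIs was 0% in GFI1 KO without other lineages, and 1.36% and 27.2% in WT without T cell transcripts and without other lineages. Genes more than 2-fold higher in GFI1 KO numbered 618 with at least 2 genes, 187 with at least 4, 38 without T cell transcripts, 223 without other lineages, 1064 at a minimum of 10 UMIs and 179 without NK-gene cells. Genes lower numbered 50 without T cell transcripts, 1023 after thinning and 1478 at 10 UMIs. Ccny turned to a ratio of 0.728 when thinning was used to choose the members, whose full counts were then summed. Over all 8 GFI1 KO members, 94 of its 99 UMIs lay in 1 cell. The cause of the turn was not tested.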

Other observations

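Immediate-early genes, which cells switch on within minutes of stimulation or tissue digestion, were high in the WT ILC2s. Of 12 tested, 7 were more than 2-fold higher than in pooled regulatory T, effector CD4 T and NK cells and 0 lower, with a median log2 ratio of 1.67. Over all genes, 1223 of 10152 (12.0%) were higher and 2276 lower, with a median of -0.23. Summed, the 12 genes took 10906 CPM in WT members and 24794 in WT basophils and mast cells. Junb, an AP-1 subunit, stood at 3924 CPM (3715 to 4142) and was seen in 75 of 79 members, Nr4a1, an orphan nuclear receptor, at 1653 CPM in 59, and Fosb at 912 CPM in 56, 42.9-fold higher than in the pooled cells. Junb was also at 1878 CPM in regulatory T cells and 2467 in effector CD4 T cells, so the gap was wider against NK cells (1146 CPM). In the GFI1 KO library all 8 members had Nr4a1 and Junb, and Fosb was seen in 6. The part of digestion in these levels was not tested.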
